A study of Mus musculus with 8 samples.

Results

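The transcriptional response to lipopolysaccharide (LPS) was measured in mouse peritoneal macrophages that had already been given nicotine, by setting the 2 libraries given nicotine and then LPS against the 2 libraries given nicotine alone. These are 4 of the 8 libraries in the series, and the pairing is by genotype: 1 pair came from wild type and 1 from α7nAChR-/- mice, in which the α7 nicotinic acetylcholine receptor gene Chrna7 is knocked out, both on a C57BL/6 background. Of 24339 genes in the table, the 7680 with at least 5 FPKM in any of the 4 libraries were compared. FPKM, a fragment count per transcript, is a level scaled by transcript length and library size.

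All cells were plated after isolation from the peritoneal cavity, washed, and treated the next day. Nicotine was given at 10 µM for 15 min, and LPS at 100 ng/ml for 4 h was then added to 1 of the 2 nicotine libraries of each genotype, while the other received vehicle in place of LPS. The remaining 4 libraries, vehicle and LPS without nicotine in each genotype, served to set the response beside that seen without nicotine. The question was how much of the LPS response is present once nicotine has been given, and whether it differs without the receptor. Every genotype and treatment had 1 library, and the labels do not say whether libraries came from separate animals or from pooled ones. The p-values below therefore measure only how far the 2 genotypes disagree in their treatment changes. That disagreement is taken over all 4 treatments, those without nicotine included, and is moderated by the spread of other genes. That spread may be technical or a real difference between genotypes, and these libraries cannot tell the 2 apart.

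LPS, a component of the outer membrane of Gram-negative bacteria, is sensed on macrophages by CD14, MD-2 and Toll-like receptor 4. One signalling arm, through the adaptor MyD88, activates NF-kB and MAP kinases and with them inflammatory cytokines and chemokines, while the arm through TRIF leads to interferon β, which acts back on the cells through STAT2 and IRF9 among others to switch on antiviral genes. Nicotine is an agonist of nicotinic acetylcholine receptors, of which the α7 type is known from work on macrophages for restraining the release of tumour necrosis factor.

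The summed FPKM was 529093 and 657052 in the wild type nicotine libraries without and with LPS, and 523764 and 627160 in the knockout ones, while the depth in counts is unknown. Chrna7 was listed at 0 FPKM in all 8 libraries, wild type included, and so checked no genotype label, and low values may be failed estimates, since Gapdh was listed at only 1.34 to 8.90 FPKM. The macrophage markers Adgre1 (307 to 342 FPKM) and Lyz2 (17576 to 25861 FPKM) were high in all 4 nicotine libraries, and none of the 7 macrophage markers passed the test. The 7 markers of large peritoneal macrophages summed to 508 and 565 FPKM in the wild type pair and to 372 and 366 FPKM in the knockout pair, and none of 6 tested passed. Timd4 alone of the 7 was higher in the knockout pair, at 78.3 and 89.0 FPKM against 34.5 and 29.1 FPKM in the wild type pair. Gata6, Icam2, Vsig4, Cd5l, Prg4 and Alox15 were lower in each knockout library than in the wild type library of the same treatment. Vsig4 was at 96.9 and 114 FPKM in the wild type and at 3.57 and 2.33 FPKM in the knockout pair. This difference between genotypes was not tested. Mast cell markers were higher with LPS: the 7 genes summed to 393 and 754 FPKM in the wild type pair and to 300.4 and 574 FPKM in the knockout pair, and Cpa3, Cma1, Mcpt4, Tpsb2 and Fcer1a, 5 of 6 tested, passed the test (log2 change 0.78 to 1.00). B cell markers summed to 228 and 306 FPKM and to 167 and 366 FPKM, and 3 of 6 tested, Cd79a and Ms4a1 among them, passed. The call of Tpsb2, Mcpt4, Fcer1a and Cd79a was lost without each of the 4 nicotine libraries in turn (adjusted p up to 0.0586, 0.0701, 0.12 and 0.231), that of Cma1 and Ms4a1 without 3 of them (up to 0.0607 and 0.253), and that of Cpa3 without either knockout library (up to 0.0602). Neutrophil markers summed to 22.9 and 46.1 FPKM and to 60.7 and 88.9 FPKM, nearly all from S100a8, which did not pass (0.77, adjusted p = 0.071), and dendritic cell markers to 54.7 and 90.1 FPKM and to 76.2 and 104 FPKM. No T and NK cell, fibroblast or eosinophil marker reached 5 FPKM. In bulk RNA a change in the number of cells of a type and a change in RNA per cell cannot be told apart.

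With nicotine present, LPS still changed a large part of the transcriptome, and the genes that rose most were interferon-inducible genes, chemokines and cytokines. In a limma fit on log2(FPKM + 1) over all 8 libraries, with genotype as a term and Benjamini-Hochberg adjustment at 0.05, 1503 of 7680 genes (19.6%) passed the test, 849 upwards (11.1%) and 654 downwards (8.52%). Each of the 1503 moved the same way in both genotypes, which the test itself favours. Its estimate is the mean of both pairs, and their disagreement raises its error, as does that of the libraries without nicotine. At least 2-fold changes numbered 506 upwards and 249 downwards, and 66 genes rose but only 1 fell by at least 10-fold. Folds and ranks by size, here and below, are those of FPKM + 1. The median log2 change over all 7680 genes was 0.01. The 4 nicotine libraries fitted alone gave 2015 genes, and without 1 of them the count fell to 425 (wild type nicotine left out), 524 (wild type nicotine with LPS), 378 (knockout nicotine) and 374 (knockout nicotine with LPS).

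Cxcl10, which encodes a chemokine that attracts activated T cells and lies at chr5:92346638-92348889 (minus strand, GRCm38, GENCODE vM21), rose most on the log2(FPKM + 1) scale. It stood at 1.25 FPKM with nicotine and 509 FPKM with nicotine and LPS in wild type cells, and at 2.95 and 861 FPKM in knockout cells. As the mean of both genotypes this was a 222-fold rise in FPKM + 1 (log2 change 7.80 ± 0.52, SE, limma adjusted p = 0.000806). The ratios of FPKM itself are larger. The 2 LPS libraries were both far above the 2 without LPS and the groups did not overlap. For genes named by size or by their call, with 2 libraries a side, such separation describes the values here and below. It adds no support to the test, and its share over all genes was not counted. Ifit1, an antiviral protein that binds foreign RNA, went from 0.324 to 294 FPKM in wild type cells and from 2.27 to 543 FPKM in knockout cells (7.59 ± 0.62, adjusted p = 0.00138). Oasl1, an interferon-inducible member of the oligoadenylate synthetase-like family, went from 1.32 to 273 FPKM and from 4.86 to 409 FPKM (6.51 ± 0.39, adjusted p = 0.000755). In both genes, too, each LPS library lay above both of the others.

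The promoters of these 3 genes are shown because they are those of the largest rises that the RefSeq table holds (that of Ccl4, which rose more than Oasl1, is not used here), and because kappaB and interferon response motifs bear on the arms described above. They are RefSeq sequences on GRCm38.p6, 250 bases before to 50 after the annotated start, read 5′ to 3′ on the gene's strand: Cxcl10 at chr5:92348840-92349139 (minus strand), Ifit1 at chr19:34640639-34640938 (plus strand) and Oasl1 at chr5:114922990-114923289 (plus strand). Capitals mark matches on either strand to the motifs searched: kappaB (GGG, any 3 bases, then TTCC or TCCC), ISRE (GAAA, any 2 bases, then GAAA), AP-1 (TGANTCA), CRE (TGACGTCA) and CARE (TGATGNAA).
Cxcl10: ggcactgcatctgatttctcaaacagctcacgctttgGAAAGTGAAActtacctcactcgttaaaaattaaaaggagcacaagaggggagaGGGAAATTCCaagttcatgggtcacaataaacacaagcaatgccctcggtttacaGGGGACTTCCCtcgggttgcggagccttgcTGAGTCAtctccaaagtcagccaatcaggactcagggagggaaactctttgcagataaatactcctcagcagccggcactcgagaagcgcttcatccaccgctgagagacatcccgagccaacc
Ifit1: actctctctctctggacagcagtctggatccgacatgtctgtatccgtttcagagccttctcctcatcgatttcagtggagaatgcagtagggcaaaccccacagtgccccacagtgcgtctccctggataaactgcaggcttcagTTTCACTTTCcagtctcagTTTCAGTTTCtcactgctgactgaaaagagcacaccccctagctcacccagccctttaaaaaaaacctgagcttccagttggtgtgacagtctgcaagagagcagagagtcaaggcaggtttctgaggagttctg
Oasl1: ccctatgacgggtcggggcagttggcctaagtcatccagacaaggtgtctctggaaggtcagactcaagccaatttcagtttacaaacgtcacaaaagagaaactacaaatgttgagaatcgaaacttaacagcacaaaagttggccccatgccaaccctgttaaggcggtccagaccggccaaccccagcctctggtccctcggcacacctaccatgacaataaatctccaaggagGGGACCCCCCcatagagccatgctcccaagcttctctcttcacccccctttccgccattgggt
Cxcl10 held 3 kappaB matches, 2 of them overlapping, with 1 ISRE and 1 AP-1 match. Ifit1 held 2 ISRE matches starting 104 and 85 bases before the start, and Oasl1 held 1 kappaB match. A kappaB match lay in 10.4% of all 32851 promoters of the table and in 12.5% of those of the genes tested, against 24.5% of the 188 promoters of genes at least 4-fold higher with LPS under nicotine. For ISRE these shares were 3.44%, 3.55% and 23.4%, and for AP-1 7.81%, 5.31% and 16.5%. Promoters of all 849 genes that rose, of any size, gave 17.6% with kappaB, 9.5% with ISRE and 8% with AP-1. Those of all 654 genes that fell, of any size, gave 12.9%, 2.43% and 6.15%. A match of letters is a description and not a site in use.

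**Figure D1:**
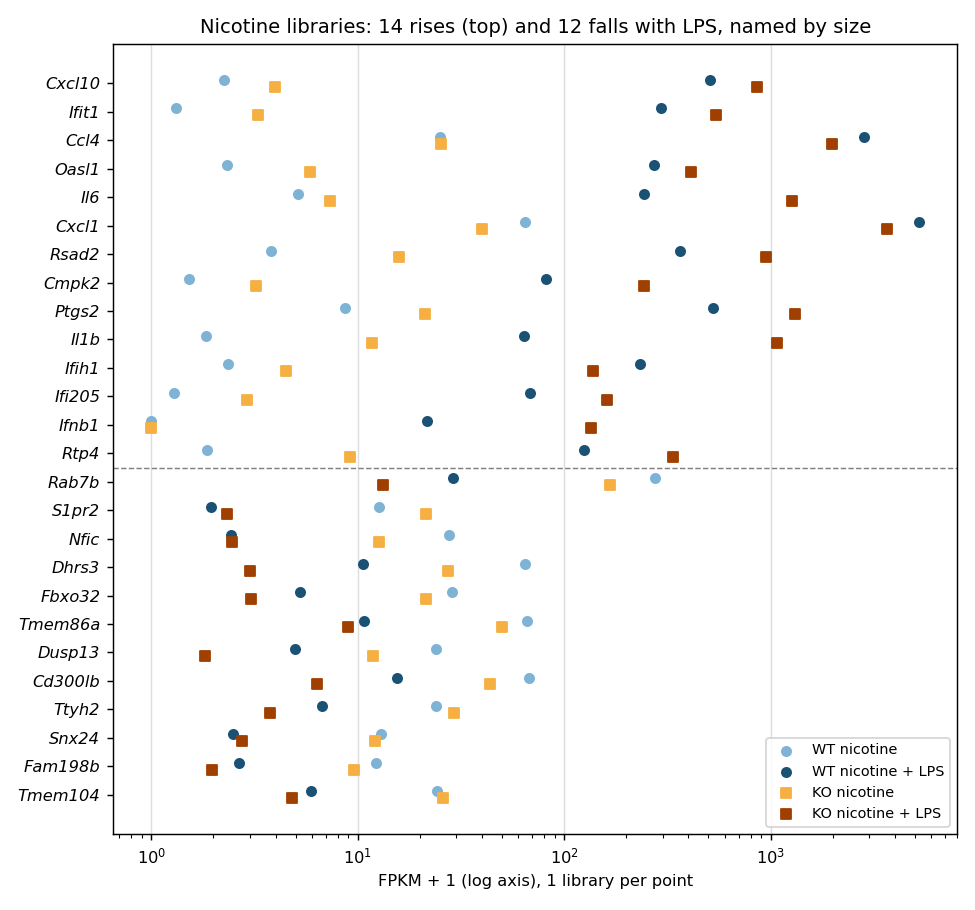
FPKM + 1 on a log axis in the 4 nicotine libraries (WT, wild type; KO, knockout) for 14 rises, above the dashed line, and 12 falls, below it, named by size, with 1 library per point. In each gene both LPS libraries lie on the same side of both libraries without LPS, and Cxcl10 spans 1.25 to 861 FPKM.

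Interferon-stimulated genes rose nearly as a whole. Of 34 type I interferon-stimulated genes tested, 33 rose and none fell, against 11.1% of all genes tested that rose, with a median log2 change of 3.07, and Bst2 alone did not pass (log2 change 0.90, adjusted p = 0.128). The counts of the other lists below are to be read against this 11.1%, and against the 8.52% that fell. Rsad2, the antiviral enzyme viperin, was at 2.80 and 364 FPKM in the wild type pair and at 14.9 and 948 FPKM in the knockout pair (log2 change 6.24), and the neighbouring kinase gene Cmpk2 at 0.529 and 81.0 and at 2.20 and 242 FPKM (6.00). Ifih1, the RNA sensor MDA5, rose by 5.79, and Rtp4 by 5.63 on the log2 scale. The groups did not overlap in any of these 4 genes. The genes of the signalling complex itself were among the members that rose: Stat2 (2.56) and Irf9 (2.23), with Irf7, a factor that amplifies interferon production, at 3.04. Without each nicotine library in turn, 26, 28, 26 and 25 of the 34 passed (wild type nicotine, wild type nicotine with LPS, knockout nicotine and knockout nicotine with LPS left out, in this order here and below), and the call of Irf7 was lost in 3 of the fits (adjusted p up to 0.125).

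The interferon-inducible GTPases, which attack the vacuoles of intracellular microbes, rose in 14 of 15, with a median of 3.24. Gbp5 led, at 1.20 and 95.0 FPKM in the wild type pair and 2.93 and 187 FPKM in the knockout pair (log2 change 5.51, adjusted p = 0.00129). Irgm1, a regulator of the family, was at 24.1 and 200 FPKM and at 36.0 and 629 FPKM (3.55), and Igtp at 3.52 and 53.9 and at 9.68 and 265 FPKM (4.12). The knockout library with nicotine and LPS was the highest in all 3 genes and no groups overlapped. Gbp9 had the smallest change that passed (1.30, adjusted p = 0.0397), and its call was lost with 3 of the libraries left out (up to 0.221). Of the list 12, 14, 10 and 8 passed with 1 library left out. Genes for antigen peptide loading rose in 6 of 14 (median 0.76), led by H2-Q7 (2.73) and the peptide transporter Tap1 (1.96), but at most 1 of the 14 passed with any 1 nicotine library left out, and the calls of both genes were lost in 3 of the 4 fits (adjusted p up to 0.0912 and 0.113). H2-Q7 belongs to a family of near-identical class I genes, so its value is uncertain.

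Ifnb1, which encodes interferon β, was listed at 0 in both nicotine libraries and at 20.6 FPKM in wild type and 134 FPKM in knockout cells with nicotine and LPS. No fold is given against libraries at 0. It passed the test (adjusted p = 0.0175), but not with any 1 of the nicotine libraries left out (0.0505 to 0.131). Without nicotine it was listed at 0 with vehicle and at 6.21 and 165 FPKM with LPS in wild type and knockout cells.

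Cytokine genes rose in 16 of 21 tested, against 11.1% of all genes tested, and fell in none, with a median log2 change of 2.43. Il6, a mediator of fever and the acute phase response, was at 4.16 and 242 FPKM in wild type and at 6.33 and 1274 FPKM in knockout cells (log2 change 6.50 ± 0.56, adjusted p = 0.0016). Tnf was at 90.8 and 3118 FPKM and at 65.4 and 2821 FPKM (5.25 ± 0.57, adjusted p = 0.00349). Il1b, the main secreted interleukin 1, was at 0.850 and 63.2 FPKM and at 10.7 and 1076 FPKM (5.82 ± 1.03, adjusted p = 0.0144). All 3 were higher in both LPS libraries than in either library without LPS, although the knockout library reached more than the wild type one for Il6 and Il1b and not for Tnf. Il10, the cytokine that restrains macrophage activation, rose with them, from 2.53 to 48.7 FPKM and from 1.86 to 104 FPKM (4.51 ± 0.32, adjusted p = 0.000929), without overlap of the groups.

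Further down the list, the interleukin 12 subunit gene Il12b rose (log2 change 3.73) from 0.137 to 12.3 FPKM and from 0.303 to 18.6 FPKM, as did Lif (3.24), the growth factor gene Csf3 (2.28) and Il1rn (3.03), whose product blocks the interleukin 1 receptor. Il27 (1.74, adjusted p = 0.0605) and Il12a (1.53, adjusted p = 0.0731) did not pass, and Osm, which encodes oncostatin M, gave the smallest value, at 123 and 94.8 FPKM and at 69.4 and 49.0 FPKM (-0.43 ± 0.29, adjusted p = 0.329). With 1 nicotine library left out, 8, 12, 9 and 9 of the 21 cytokine genes passed, the call of Il1b was lost in all 4 fits (adjusted p 0.0529 to 0.117), and that of Il1rn without the wild type nicotine or the knockout nicotine library (up to 0.0783). The mast cell, B cell, neutrophil and dendritic cell marker sums given above were higher with LPS in both genotypes, and their part in the cytokine and chemokine values was not tested.

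Chemokine genes rose in 9 of 19 with a median of 1.36. Ccl4 was at 24.0 and 2844 FPKM in wild type and at 24.4 and 1984 FPKM in knockout cells (log2 change 6.56 ± 0.74, adjusted p = 0.00371), and Cxcl1, which draws neutrophils, at 63.5 and 5238 FPKM and at 38.9 and 3662 FPKM (6.43 ± 0.49, adjusted p = 0.00112). For both genes the 2 libraries with LPS were above the 2 without it, and the wild type one was the higher. Ccl3 (4.30), Cxcl2 (4.79) and the monocyte attractant Ccl2 (2.93) also rose. At the other end Ccl6, a chemokine that resting macrophages make, had the smallest value (-0.26, adjusted p = 0.388). With 1 nicotine library left out 6, 6, 5 and 8 chemokines passed, and the call of Cxcl2 was lost without wild type nicotine with LPS or without knockout nicotine (adjusted p up to 0.059).

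In the sensing machinery the share of genes that rose was near the 11.1% over all genes tested. Of 19 tested genes for the LPS receptor and its adaptors, 2 rose and none fell (5 and 1 when the 4 nicotine libraries were fitted alone): Cd14, the co-receptor, at 438 and 1348 FPKM and at 559 and 1208 FPKM (log2 change 1.36 ± 0.19, adjusted p = 0.00636), and the adaptor gene Myd88 (0.83, adjusted p = 0.0183). Tlr4 was at 9.07 and 6.54 FPKM and at 18.4 and 10.5 FPKM, and did not pass (-0.58 ± 0.25, adjusted p = 0.146). The median of the list was 0.24, and with 1 nicotine library left out at most 1 member passed. Myd88 lost its call in all 4 of those fits (up to 0.144), and Cd14 without either library with LPS (up to 0.0581).

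Of 22 genes for NF-kB subunits and feedback inhibitors 16 rose, with a median of 1.69. Nfkbiz, a nuclear co-regulator needed for Il6 induction, led, at 11.9 and 249 FPKM in wild type and at 11.0 and 237 FPKM in knockout cells (log2 change 4.29, adjusted p = 0.000134). The 2 genotypes gave nearly the same levels in both treatments. Tnfaip3, the ubiquitin-editing inhibitor A20, rose by 2.80, Nfkbia, the inhibitor IκBα, by 2.26, Nfkbid by 2.31, and the subunit genes Nfkb1, Rel and Rela by 2.24, 1.67 and 1.11 on the log2 scale. With 1 nicotine library left out, 11, 10, 10 and 11 of the 22 passed, and the calls of Nfkbia and Rela were each lost in 3 of the fits (adjusted p up to 0.0666 and 0.0609).

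Among immediate early factors 6 of 19 rose and 1 fell, against 11.1% and 8.52% of all genes tested. Maff, a small basic leucine zipper factor, had the largest rise (2.60), followed by the nuclear receptor gene Nr4a3 (2.38) and the AP-1 component Junb (1.88). Jun, the other AP-1 partner, fell: it was at 129 and 35.7 FPKM in the wild type pair and 76.7 and 42.6 FPKM in the knockout pair (log2 change -1.33, adjusted p = 0.0305). The wild type and knockout libraries without LPS were both above the LPS libraries, which adds no support to the test. The call of Jun was lost with each nicotine library left out, where its log2 change was -1.70 to -0.96. With 1 of those libraries left out 3, 3, 3 and 2 factors rose and none fell. Maff lost it without the wild type nicotine library (0.0555) and Nr4a3 without knockout nicotine with LPS (0.0563). MAP kinase phosphatases rose in 4 of 9, led by Dusp14 (2.11), and in 4, 3, 3 and 1 with a library left out, whereas Dusp1, the family member best known for switching off p38 after LPS, was at 107 and 90.3 FPKM and at 52.1 and 50.3 FPKM (-0.15 ± 0.35, adjusted p = 0.796).

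In the JAK-STAT3 list 4 of 15 rose and 2 fell, against 11.1% and 8.52% of all genes tested. Jak2, the kinase that α7 receptors are known to recruit, was at 19.3 and 62.4 FPKM in the wild type pair and at 18.2 and 66.5 FPKM in the knockout pair (log2 change 1.73 ± 0.35, adjusted p = 0.0216). Stat3 was at 63.9 and 51.1 FPKM and at 59.9 and 90.4 FPKM (0.13 ± 0.24, adjusted p = 0.73), so that its 2 pairs went opposite ways and the groups overlapped. The feedback inhibitor genes Socs1 (2.13, adjusted p = 0.0317) and Socs3 (1.48, adjusted p = 0.0203) rose, and Il6ra, the receptor subunit for interleukin 6, fell (-1.01, adjusted p = 0.0158). The call of Jak2 was lost with each nicotine library left out (0.082 to 0.15), that of Socs1 without either library with LPS (up to 0.204), and those of Socs3 and Il6ra in 3 of the 4 fits (up to 0.147 and 0.11). In those fits 2, 0, 1 and 0 genes of the list rose and 0, 0, 2 and 0 fell. The other genes of the study's question did not pass: Hmox1, the haem oxygenase induced through NRF2, was at 5471 and 6180 FPKM and at 2676 and 2916 FPKM (0.15 ± 0.44, adjusted p = 0.839), and the Notch target Hes1 at 12.7 and 11.8 FPKM and at 4.50 and 5.87 FPKM (0.11 ± 0.26, adjusted p = 0.785).

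Surface ligands and effector enzymes rose in part. Of 13 costimulatory and adhesion ligands 10 rose (median 1.66), led by Vcam1 (2.93) and the checkpoint ligand gene Cd274 (2.73), and with Cd40, the receptor for T cell help, at 48.3 and 199 FPKM and at 21.0 and 146 FPKM (2.38). Ptgs2, the inducible cyclooxygenase, was at 7.66 and 522 FPKM and at 20.2 and 1312 FPKM (5.94 ± 0.61, adjusted p = 0.0028), the largest change among 14 effector enzymes, of which 8 rose (median 1.35). Groups did not overlap for either Cd40 or Ptgs2. Of 13 inflammasome and NOD genes 9 rose (median 1.00), led by Casp4, the caspase that binds cytosolic LPS (2.93), and the sensor gene Nlrp3 (2.77). With 1 nicotine library left out, fewer members of these 3 lists passed. The list medians were then 1.64, 1.58, 1.43 and 1.97 for the ligands and 1.46, 1.26, 1.42 and 1.52 for the enzymes. For the inflammasome genes they were 1.14, 0.83, 0.73 and 0.71. The call of Vcam1 was lost without wild type nicotine or without knockout nicotine with LPS (up to 0.0667), that of Cd274 without either knockout library (up to 0.0563), and that of Cd40 in 3 fits (up to 0.102).

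For lists that describe stress, redox and energy pathways, the counts depended on the libraries fitted. Over all genes tested 11.1% rose and 8.52% fell. None of 15 NRF2 and haem genes passed (median 0.07), though 4 rose and 2 fell when the 4 nicotine libraries were fitted alone, and none of 28 genes of oxidative phosphorylation (0.02), with 1 rise in the latter fit. Amino acid stress genes gave 1 rise, Ppp1r15a (1.18), and 1 fall, Ddit3 (-0.80), among 22, and ER chaperones 1 rise, Hspa5 (1.30), and 1 fall, Sdf2l1 (-0.60), among 14. With the 4 nicotine libraries alone, where 2015 of all 7680 genes passed, the amino acid stress list gave 4 rises and 3 falls and the ER chaperones 2 and 1. The calls of Ppp1r15a and Sdf2l1 were lost in all 4 fits with 1 library left out, and that of Ddit3 in 3 (adjusted p up to 0.0695, 0.221 and 0.192). Of 13 heat shock genes 4 rose (none with 1 library left out, 8 with the 4 nicotine libraries alone), of 11 cell cycle genes 4 (1 or 2), and of 13 acute phase genes 2 (0 to 3), while 1 of 15 cholesterol synthesis genes fell and none of 5 Fc receptor genes passed. Of 10 Notch genes, Notch1, the receptor, passed, at 6.95 and 22.9 FPKM and at 6.58 and 21.9 FPKM (1.59, adjusted p = 0.002). Ribosomal protein genes rose in 3 of 25 (median 0.38), in none with quantile scaling (median -0.08) and in 17 when the 4 nicotine libraries were fitted alone, so no direction is given for them.

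**Figure D2:**
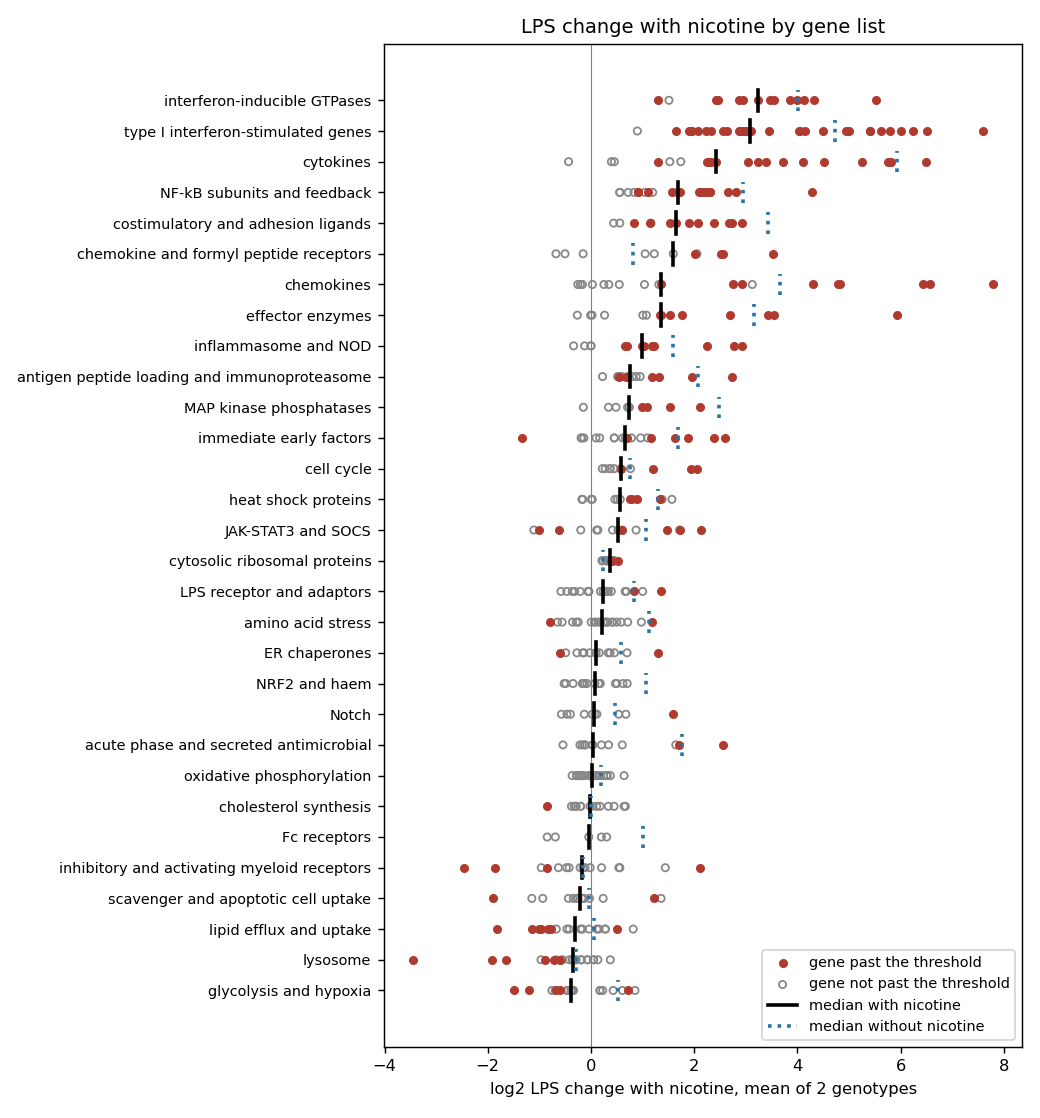
Log2 LPS change with nicotine (horizontal axis, mean of both genotypes) of every tested member of the 30 gene lists, with filled points past the limma threshold. Black bars are list medians with nicotine and dotted bars those without; the interferon-inducible GTPases have the highest median with nicotine, 3.24, and glycolysis and hypoxia the lowest, -0.38.

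Rab7b, a late endosomal GTPase (chr1:131688695-131715439, plus strand), fell most, from 274 to 28.1 FPKM in wild type cells and from 165 to 12.2 FPKM in knockout cells (log2 change -3.45 ± 0.20, adjusted p = 0.000755), and was the single gene past 10-fold. S1pr2, a receptor for sphingosine 1-phosphate, went from 11.7 to 0.955 FPKM and from 20.5 to 1.32 FPKM (-2.96 ± 0.18, adjusted p = 0.000755). Nfic, a transcription factor of the nuclear factor I family, went from 26.8 to 1.43 FPKM and from 11.7 to 1.45 FPKM (-2.94 ± 0.28, adjusted p = 0.00228). All 3 were lower in both LPS libraries than in either other library. The further falls of at least this rank were Dhrs3 (-2.89), Fbxo32 (-2.62), Tmem86a (-2.55), Dusp13 (-2.48), Cd300lb (-2.45), Ttyh2 (-2.39), Snx24 (-2.26), Fam198b (-2.24) and Tmem104 (-2.23). The calls of Dhrs3 and Ttyh2 were lost in all 4 fits with 1 nicotine library left out (adjusted p up to 0.0884 and 0.152), that of Dusp13 in 3 (up to 0.0783), that of Fbxo32 without either knockout library (up to 0.0578) and that of Snx24 without knockout nicotine (0.0517).

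Of 22 lysosomal genes 6 fell and none rose (median -0.36), against 8.52% of all genes that fell. Besides Rab7b these included the lysosomal phospholipase gene Pla2g15, at 98.5 and 24.0 FPKM and at 58.0 and 15.6 FPKM (-1.91), the acid lipase gene Lipa (-0.90) and the proton pump subunit gene Atp6v0d2 (-1.65). Of 18 lipid efflux and uptake genes 6 fell and 1 rose (median -0.31). With quantile scaling 897 of all 7680 genes fell. Rxra, the shared partner of the lipid-sensing nuclear receptors, was at 48.8 and 13.6 FPKM and at 42.1 and 10.9 FPKM (-1.81, adjusted p = 0.00146), and Pparg (8.19 and 3.02 FPKM in wild type, 2.36 and 0.911 FPKM in knockout cells), Ppard (-0.96), the fatty acid binding protein gene Fabp5 (-1.14) and the cholesterol transporter gene Npc1 (-0.84) fell as well. Neither pair of groups overlapped for Pla2g15 or Rxra. With 1 nicotine library left out, 2, 4, 2 and 2 lysosomal and 1, 2, 1 and 2 lipid genes fell, and with quantile scaling 12 lysosomal and 8 lipid genes did. Pparg and Npc1 lost their calls in all 4 fits (up to 0.176 and 0.133), and Lipa, Atp6v0d2, Fabp5 and Ppard in 3 (up to 0.0757, 0.137, 0.149 and 0.0675).

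Myeloid surface receptors gave 3 falls and 1 rise among 16. Over all 7680 genes 8.52% fell and 11.1% rose, and 897 genes fell with quantile scaling. Cd300lb, an activating receptor, was at 66.9 and 14.6 FPKM and at 42.6 and 5.33 FPKM, and the inhibitory Cd300a at 63.0 and 20.6 FPKM and at 25.5 and 5.05 FPKM (-1.85), while Trem1, which amplifies inflammatory signals, rose (2.11) from 0.308 to 5.80 FPKM and from 2.02 to 9.87 FPKM. In all 3 the groups were apart, and with quantile scaling 5 of the 16 fell while with 1 library left out 1 or 2 did. The phagocytosis bridging factor Gas6 was the only fall among 14 scavenger and apoptotic cell uptake genes (-1.89, adjusted p = 0.00568). Among 20 glycolysis and hypoxia genes 4 fell and 1 rose (median -0.38), with Pfkfb3, a kinase that drives glycolytic flux, falling most (-1.48, adjusted p = 0.0179) and Bnip3 next (-1.21). The call of Cd300a was lost without wild type nicotine or knockout nicotine (adjusted p up to 0.0586), that of Pfkfb3 in 3 fits (up to 0.121) and that of Bnip3 in all 4 (up to 0.108), and at most 1 glycolysis gene fell with a library left out, against 8 with quantile scaling.

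Chemoattractant receptors rose in 4 of 11 (median 1.59), and in 2, 2, 3 and 2 with a library left out. The atypical receptor gene Ccrl2 led, at 111 and 1599 FPKM and at 165 and 1527 FPKM (3.52, adjusted p = 0.000755), and the complement receptor gene C5ar1 rose by 2.02 on the log2 scale. Xcr1, which encodes a chemokine receptor typical of cross-presenting dendritic cells and was chosen after its values were seen, went from 2.48 to 27.3 FPKM in wild type cells and from 1.97 to 18.4 FPKM in knockout cells (2.87, adjusted p = 0.00129), without overlap. The other 4 dendritic cell markers were also higher with LPS in both genotypes. Itgax was at 51.0 and 60.2 FPKM and at 72.7 and 81.7 FPKM and did not pass (0.20, adjusted p = 0.316), while Flt3, Zbtb46 and Clec9a, at most 1.39, 2.39 and 0.697 FPKM, were too low to test. Their part in the value of Xcr1 was not tested.

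Each genotype was also read alone, as 1 pair of libraries with no test. In the wild type pair 547 genes were at least 2-fold higher with LPS (7.12%) and 294 lower (3.83%), and in the knockout pair 697 (9.08%) and 308 (4.01%). Higher genes shared by both pairs numbered 433, or 79.2% of the wild type and 62.1% of the knockout genes, and lower ones 179 (60.9% and 58.1%). No gene was 2-fold higher in 1 genotype and 2-fold lower in the other. The pairs differed by at least 1 on the log2 scale in 266 genes, with the larger value in wild type for 96 and in knockout for 170.

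**Figure D3:**
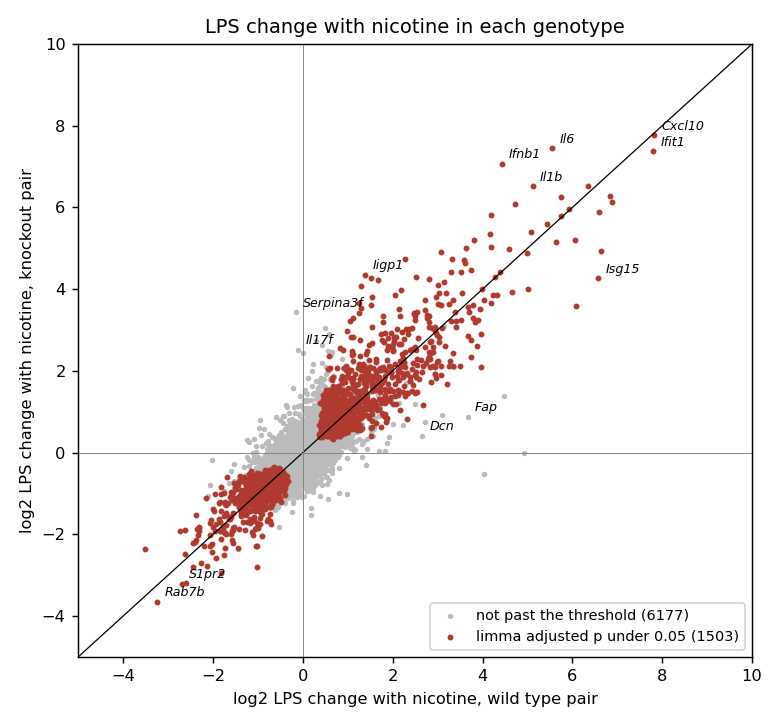
Log2 LPS change with nicotine in the wild type pair (horizontal) against the knockout pair (vertical) for 7680 genes, with the 1503 genes past the limma threshold in red and the line of equality in black. Every red point has the same sign on both axes, which the test itself favours, and Serpina3f and Fap lie far from the line.

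By the fixed rule on size, the largest excesses in knockout cells belonged to Serpina3f, Iigp1, Fam26f, Pydc3, Ifnb1 and Il17f. Serpina3f, a protease inhibitor gene, was at 0.926 and 0.731 FPKM in wild type and at 1.51 and 26.2 FPKM in knockout cells. Iigp1, an immunity-related GTPase gene, was at 1.59 and 5.74 FPKM and at 1.99 and 60.3 FPKM. In both genes the knockout library with nicotine and LPS stood above the other 3. Larger changes in wild type cells were seen for Ccl5 (30.1 and 2087 FPKM against 274 and 3286 FPKM), Isg15 (35.8 and 3488 FPKM against 210 and 4043 FPKM), Acp5, Fap, Dcn and Il1rn (27.2 and 439 FPKM against 95.1 and 412 FPKM). For Ccl5 and Isg15 the wild type library without LPS was the lowest of the 4, and the 2 libraries with LPS were less far apart. Fap and Dcn, genes of fibroblasts, were at 12.9 and 10.7 FPKM in the wild type library with nicotine and LPS and under 2 FPKM in the other 7, and the 6 fibroblast and mesothelial markers summed to 7.99 FPKM there and to at most 1.69 FPKM elsewhere. Their part in those values was not tested.

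Set beside the response without nicotine, the LPS change with nicotine differed in many genes, more often towards a smaller rise on the FPKM scale as deposited. The difference of the 2 changes, tested in the same 8-library fit over the 8812 genes with at least 5 FPKM in any library, passed for 2740 genes (31.1%), with the change lower with nicotine in 1738 (19.7%) and higher in 1002 (11.4%). The median difference over all genes was -0.20, a shift that quantile scaling took to -0.01 and median centring to -0.03. The share of higher among the called differences was 36.6% as tested, 55.5% with quantile scaling and 51.4% with median centring. Single differences below are to be read against that shift. Of the 1738 genes with a lower change, 285 still rose with LPS under nicotine, 148 fell, 1175 did not pass and 130 were not tested there. Without 1 library the count of called differences was 1022 (wild type vehicle left out), 1108 (wild type nicotine), 846 (wild type nicotine with LPS), 2509 (wild type LPS), 1651 (knockout vehicle), 1186 (knockout nicotine), 3273 (knockout LPS) and 1136 (knockout nicotine with LPS).

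Counted by size in both genotypes, 1463 genes were at least 2-fold higher with LPS without nicotine and 442 with it. The 363 in common made up 24.8% of the first set and 82.1% of the second. The median log2 change of the 1463 genes was 1.96 without nicotine, by which they were chosen, and 0.65 with it. For genes at least 2-fold lower the counts were 930 without and 183 with nicotine, and the 96 in common were 10.3% and 52.5%. These counts use FPKM as deposited and were not repeated under another scaling. Without nicotine the summed FPKM went with LPS from 413052 to 795630 in wild type and from 442307 to 854016 in knockout cells. Those steps were larger than the ones given above for the nicotine libraries.

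**Figure D4:**
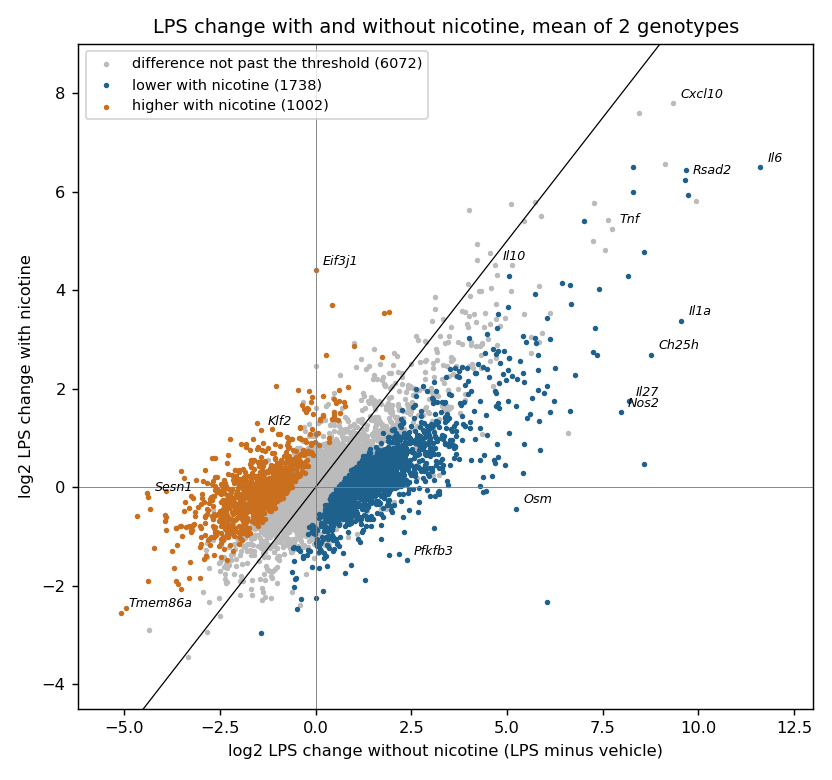
Log2 LPS change without nicotine (horizontal) against that with nicotine (vertical), mean of both genotypes, for 8812 genes with the line of equality, coloured by whether the difference passed the limma threshold (1738 lower, 1002 higher with nicotine). Pfkfb3 lies below 0 with nicotine and above 0 without, and Klf2 lies on opposite sides the other way round.

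U90926, a macrophage transcript, was at 240 and 867 FPKM with LPS and at most 0.802 FPKM with nicotine and LPS (difference -8.11 ± 0.53, adjusted p = 0.00258). Nos2, the inducible nitric oxide synthase, was listed at 0 and 164 FPKM in wild type and 2.11 and 1189 FPKM in knockout cells without nicotine, and at 0.0625 and 1.56 and 0.353 and 3.61 FPKM with it (-6.45 ± 0.77, adjusted p = 0.00529). In both genes the 2 LPS libraries without nicotine were far above the other 6.

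Cytokine genes were prominent among the lower changes: 19 of 24 tested passed and none was higher, with a median difference of -3.34. Over all 8812 genes tested 19.7% had a lower change. Il1a, the cell-associated interleukin 1, went from 3.49 to 11377 FPKM in wild type cells and from 39.9 to 9202 FPKM in knockout cells without nicotine, and from 66.1 to 771 FPKM and from 192 to 1830 FPKM with it (-6.18 ± 0.99, adjusted p = 0.00899). Its log2 change was 9.56 without and 3.38 with nicotine, and the latter lost its call with each nicotine library left out (up to 0.13). Il6 changed by 11.62 without and 6.50 with nicotine (-5.12 ± 0.78, adjusted p = 0.00805). Il27 (-6.44), Osm (-5.67) and Il12a (-4.60) were further members of this list with strongly negative differences. Il1b changed by 9.94 without and 5.82 with nicotine, and Tnf by 7.76 and 5.25, but these differences did not pass (-4.12 ± 1.44, adjusted p = 0.0709, and -2.51 ± 0.80, adjusted p = 0.0562). Il10 changed by 4.69 without and 4.51 with nicotine, a difference of -0.18 ± 0.45 (adjusted p = 0.777) whose sign turned under 4 of the settings tried. With 1 library left out, 14 to 20 of the 24 cytokine genes had a lower change.

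The antiviral and chemokine genes were less uniform. Of 34 interferon-stimulated genes 16 had a lower change and none a higher one (median difference -1.84), 10 and 1 with quantile scaling, and 6 to 24 lower with 1 library left out. Rsad2 changed by 9.66 without and 6.24 with nicotine (-3.42 ± 0.48, adjusted p = 0.00689) and Cmpk2 by 8.29 and 6.00 (-2.29 ± 0.24, adjusted p = 0.00451). For the interferon-inducible GTPases 2 of 15 had a lower change (median difference -1.10), and 13 did not pass. That share was not above the 19.7% of all 8812 genes that had a lower change. Cxcl10, at 7244 and 10567 FPKM with LPS alone, changed by 9.34 without and 7.80 with nicotine, and the difference did not pass (-1.54 ± 0.73, adjusted p = 0.15). Of 21 chemokines 11 were lower and 1 higher (median -2.62). Among them Cxcl1 was at 3.66 and 8755 FPKM in wild type and at 6.14 and 2583 FPKM in knockout cells without nicotine. With nicotine alone it was already at 63.5 and 38.9 FPKM, and with LPS added at 5238 and 3662 FPKM, the knockout value above that with LPS alone. Its log2 change was 9.69 without and 6.43 with nicotine (-3.25 ± 0.69, adjusted p = 0.0174), a call lost without any 1 of the nicotine libraries. The lower count fell from 11 to 5, 2, 5 and 4 with those libraries left out, and to 7 without wild type vehicle, and was 10 to 12 without the other 3. Among the 22 NF-kB genes 13 had a lower change (median -1.09), but only 4 with quantile scaling and 8 with median centring, and 5 or 6 without any 1 nicotine library or wild type vehicle. The lysosomal genes, of which 6 fell with nicotine, gave 1 called difference in 22, and 6 with quantile scaling. Over all 8812 genes the lower and higher counts were 1155 and 1439 with quantile scaling and 1222 and 1291 with median centring.

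Other called differences among the genes of the question were those of Jak2 (-2.14 ± 0.49, adjusted p = 0.0227), with 441 and 359 FPKM in the LPS libraries against 62.4 and 66.5 FPKM with nicotine and LPS, and of Stat3 (-2.07 ± 0.34, adjusted p = 0.00954), with 120 and 210 FPKM against 51.1 and 90.4 FPKM. For Jak2 the call was lost with quantile scaling and without 5 of the libraries, wild type LPS and the 4 with nicotine (adjusted p up to 0.0874), and for Stat3 without wild type nicotine with LPS (0.0505). Hmox1 (-0.92 ± 0.62, adjusted p = 0.282) and Hes1 (-0.09 ± 0.36, adjusted p = 0.86) did not pass. Ch25h, the enzyme that makes 25-hydroxycholesterol, changed by 8.77 without and 2.69 with nicotine (-6.08 ± 0.55, adjusted p = 0.00403). Slfn4 (-5.12), the endothelial lipase gene Lipg (-5.11), Il1bos (-5.11) and the metalloproteinase inhibitor gene Timp1 (-4.56) followed, and Timp1 lost the call without wild type nicotine with LPS (adjusted p = 0.0526). Il1bos is transcribed antisense to Il1b, and the library kit does not mark strand, so reads of the 2 genes cannot be told apart where they overlap.

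The promoters of U90926, Il1a and Ch25h, the genes of most negative difference that the RefSeq table (GRCm38.p6) holds, are shown for contrast with those of Cxcl10, Ifit1 and Oasl1: U90926 at chr5:92215359-92215658, Il1a at chr2:129309923-129310222 and Ch25h at chr19:34475099-34475398, all on the minus strand, with the same motifs in capitals.
U90926: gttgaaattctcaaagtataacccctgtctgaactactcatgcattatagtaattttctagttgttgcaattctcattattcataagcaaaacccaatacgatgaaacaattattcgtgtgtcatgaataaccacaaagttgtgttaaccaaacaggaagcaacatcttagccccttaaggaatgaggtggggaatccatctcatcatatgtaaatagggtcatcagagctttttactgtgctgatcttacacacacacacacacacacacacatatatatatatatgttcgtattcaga
Il1a: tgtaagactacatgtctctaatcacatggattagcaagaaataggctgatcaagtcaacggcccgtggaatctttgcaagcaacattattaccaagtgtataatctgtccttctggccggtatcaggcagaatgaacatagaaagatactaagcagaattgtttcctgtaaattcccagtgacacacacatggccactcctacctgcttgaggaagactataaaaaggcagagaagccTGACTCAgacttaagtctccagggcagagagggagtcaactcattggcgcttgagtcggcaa
Ch25h: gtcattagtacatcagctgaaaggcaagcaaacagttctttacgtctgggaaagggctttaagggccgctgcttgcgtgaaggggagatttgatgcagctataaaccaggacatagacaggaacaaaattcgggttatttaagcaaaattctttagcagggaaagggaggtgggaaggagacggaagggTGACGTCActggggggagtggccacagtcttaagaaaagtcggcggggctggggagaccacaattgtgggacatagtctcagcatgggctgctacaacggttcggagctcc
U90926 held none of the motif letters, Il1a 1 AP-1 match starting 12 bases before the start and Ch25h 1 CRE match. In the 252 promoters of genes whose change was at least 4-fold lower with nicotine, kappaB matches lay in 17.1%, ISRE in 9.13% and AP-1 in 12.3%, against 12.5%, 3.52% and 5.49% for all genes tested for the difference.

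**Figure D5:**
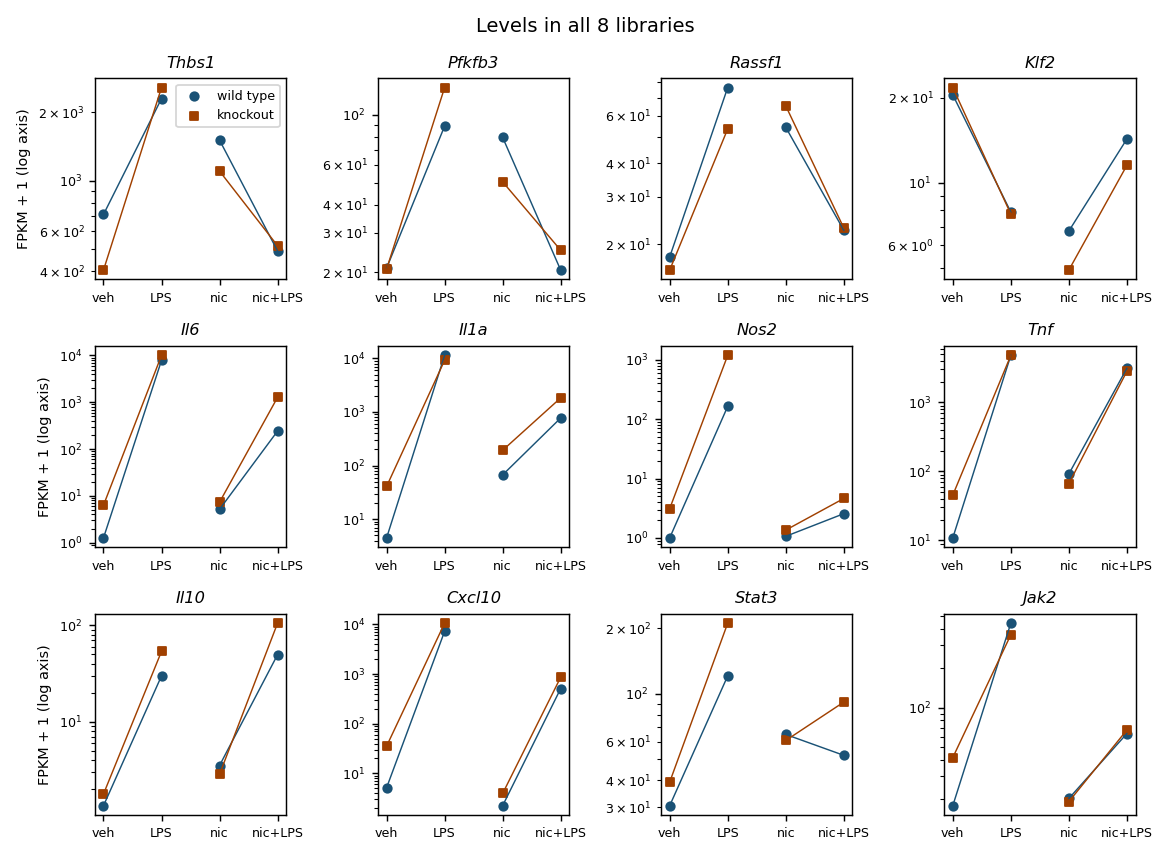
FPKM + 1 on a log axis in all 8 libraries (veh, vehicle; nic, nicotine) for 12 genes, wild type as circles and knockout as squares, with lines joining each pair without and with LPS. Thbs1, Pfkfb3 and Rassf1 rise without nicotine and fall with it, Klf2 does the reverse, and Il10 reaches 48.7 and 104 FPKM with nicotine and LPS against 29.0 and 52.8 FPKM with LPS alone.

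Of the 1463 genes at least 2-fold higher with LPS without nicotine, 4 were at least 2-fold lower with LPS under nicotine in both genotypes, among them Pfkfb3, Rassf1 and Thbs1, the last 2 named after their values were seen. Thbs1, which encodes the matrix protein thrombospondin 1, went from 708 to 2290 FPKM and from 403 to 2560 FPKM without nicotine, and from 1503 to 489 FPKM and from 1099 to 516 FPKM with it (difference -3.53 ± 0.35, adjusted p = 0.00431). Pfkfb3 went from 19.9 to 88.2 FPKM and from 19.7 to 131 FPKM, and with nicotine from 78.5 to 19.5 FPKM and from 49.5 to 24.1 FPKM (-3.87 ± 0.40, adjusted p = 0.00451). Rassf1, a tumour suppressor gene, had a difference of -3.30 ± 0.28. In these 3 the nicotine libraries without LPS were above the vehicle libraries. The fall of Thbs1 with nicotine lost its call with each nicotine library left out (adjusted p up to 0.111) and that of Rassf1 in 3 of those fits (up to 0.0621). Klf2, a transcription factor that restrains macrophage activation, was the reverse case, also named after its values were seen. It went from 19.5 to 6.88 FPKM and from 20.7 to 6.75 FPKM without nicotine and from 5.75 to 13.3 FPKM and from 3.91 to 10.5 FPKM with it (2.59 ± 0.24, adjusted p = 0.00403), and its rise with nicotine lost the call in 3 of the 4 fits (up to 0.0676).

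The most positive differences belonged mainly to genes that fell with LPS without nicotine and were already low with nicotine alone. Sesn1, a stress-responsive regulator of nutrient sensing, went from 57.5 to 1.31 FPKM and from 37.7 to 1.24 FPKM without nicotine, and was at 10.5 and 8.51 FPKM and at 8.10 and 7.41 FPKM with it (difference 4.20 ± 0.24, adjusted p = 0.002). Its change with nicotine did not pass (-0.19 ± 0.17, adjusted p = 0.45), and the vehicle libraries were the highest and the LPS libraries the lowest of the 8. Ypel3 (4.06), the clock output gene Dbp (3.88), Susd3 (3.85), Abcd2 (3.85), the MAX partner gene Mxd4 (3.37), Nfam1 (3.30), Kcnj2 (3.29) and the inhibitory receptor gene Lair1 (3.29) had the same pattern of a fall without nicotine and no call with it or too low a level to test. Engase (4.29) and Rgs2 (3.64) did as well, but lost the call of the difference in 4 and 3 of the fits without 1 library, all of them without a nicotine library (adjusted p up to 0.0603 and 0.0711). Eif3j1, a subunit of the initiation factor eIF3, differed in kind: it was listed at 0.108 FPKM in 6 libraries and at 22.3 and 22.7 FPKM in the 2 with nicotine and LPS (4.40 ± 0.30). Its near-identical copy Eif3j2 was at 69.7 and 47.3 FPKM there and at 17.9 to 63.1 FPKM elsewhere, and the split of reads between them makes the value of Eif3j1 uncertain.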

How the data were processed

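The authors' deposited table holds 1 FPKM value per gene symbol and library. Per the submitters' processing notes, the mm10 build and the tools Cuffdiff, Cufflinks, HISAT2 and CASAVA 1.8 were involved, with no roles given. Per the labels' protocols, poly(A) RNA was made into libraries with a kit that does not mark strand. Of 24341 lines, 24339 genes remained, since 2 symbols occurred on more than 1 line and were each taken from their most abundant line.

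log2(FPKM + 1), which understates changes of low genes, was fitted with limma 3.58.1 (R 4.3.3, trend) over all 8 libraries, with 4 treatment levels and genotype as terms and 3 residual degrees of freedom. Genes needed 5 FPKM in any library compared, and p-values were adjusted by Benjamini-Hochberg at 0.05. The genotype pairs were read without a test. The fit was also run on simulated data with independent noise per library and the same treatment changes in both genotypes. That run cannot tell technical spread from a difference between genotypes.

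The members and gene lists were chosen with earlier results of these data known. Genes were named by size: the 14 largest rises, 12 largest falls, 12 differences and 6 genotype differences each way, the extreme members of each list and the genes of the question. Some genes that these rules name are not reported here. Other list members and markers were named after their values were seen. Alternatives changed the pseudocount, scaling, filter, trend, genotype term and libraries.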

Additional observations from a re-analysis of the deposited data

Results flagged for a closer look

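In 4 of the genes named the LPS change with nicotine had opposite signs in the 2 genotypes, each measured in 1 pair of libraries, and the difference was not tested. Serpina3f had a log2 change of -0.15 in wild type and 3.44 in knockout cells (difference -3.59), and Il17f, which encodes a cytokine of T cells, -0.10 and 2.52 (-2.62). Of the genes of the question, Stat3 had -0.32 and 0.59 (-0.90) and Hes1 -0.09 and 0.32 (-0.41).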

How the results depend on the processing

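The count of genes past the threshold for the LPS change with nicotine was 1503, 673 without the genotype term, and 374 to 524 with 1 nicotine library left out. For the difference it was 2740, 1395 without the genotype term, and 846 to 3273 with 1 library left out. In the other settings both counts lay within 1.5 times. The share of higher among called genes moved from 56.5% to 43.5% with quantile scaling for the change with nicotine, and for the difference from 36.6% to 47.3% with no filter. An alternative added after the data were seen, the difference over the 7680 genes alone, gave 2331 genes. Of 111 called changes examined singly, 52 kept the call with each nicotine library left out and 21 lost it in every such fit, and of 63 called differences 39 kept it. The genotype term pairs the libraries, and a further block by replicate number could not be fitted, since the labels carry none.

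Signs turned only for changes that had not passed or for the differences of Hes1 and Il10. With quantile scaling the change was -0.35 for H2-D1, -0.31 for Hmox1, -0.42 for Rpl10 and -0.0626 for Stat3. Without the wild type nicotine library it was 0.27 for Dusp1 and -0.21 for Rgs2, and without wild type nicotine with LPS 0.23 for Ass1 and -0.35 for Hmox1. Without the knockout nicotine library it was -0.10 for Fcgr4, -0.13 for Hes1, -0.32 for Hmox1 and -0.24 for Stat3, and without knockout nicotine with LPS 0.14 for Dusp1, -0.09 for Rgs2 and -0.09 for Stat3. The difference for Hes1 was 0.0142 with a pseudocount of 5, 0.0769 with median centring, and 0.15, 0.06 and 0.28 without wild type nicotine, knockout vehicle and knockout LPS. That for Il10 was 0.42 with a pseudocount of 5, and 0.36 without wild type nicotine, 0.20 without the wild type library given both agents and 0.04 without knockout LPS. At the other end of the range with 1 library left out, the change was -0.76 for Ass1, -0.57 for Dusp1, 0.71 for Fcgr4, 0.65 for Hmox1, 0.59 for Rgs2 and 0.51 for Stat3, and the difference -0.47 for Hes1 and -0.72 for Il10. The cause was not tested. With 1 library per genotype and treatment and no counts, the precision of low values is unknown.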
